A study of Mus musculus with 42 samples.

Results

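The proteasome genes were measured on 42 single-colour mouse arrays of aorta and skeletal muscle. Members were taken by symbol, as every probe whose gene name begins with Psma, Psmb, Psmc, Psmd, Psme, Psmf or Psmg followed by a number. This gave 49 genes read by 79 probes, of 21186 genes with a symbol and 41174 probes on the array. They comprised 31 subunits of the standard proteasome (7 of the alpha ring, 7 of the beta ring, 6 ATPases and 11 other subunits of the regulatory cap), 3 subunits of the immunoproteasome (Psmb8, Psmb9 and Psmb10), 4 activators, 1 inhibitor, 3 chaperones of the cap, 4 chaperones of the core, and 3 other matches. The last were Psma8, an alpha subunit of the testis, Psmb11, a beta subunit of the thymus, and Psmc3ip, a recombination protein that is not a proteasome subunit.

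The study compared a Chinese herbal compound with the insulin sensitizer rosiglitazone in diabetic mice with disease of the large arteries. Male mice aged 18 to 20 weeks made up 7 groups, with 3 arrays per group and tissue. Healthy mice (group G) were C57BL/6, and diabetic mice (A) were KK/Ay, a strain that carries the yellow agouti allele and develops obesity and type 2 diabetes on its own. The macroangiopathy mice (C) were KK/Ay mice that also received a high-fat diet and the nitric oxide synthase inhibitor L-NAME for 8 weeks, and the 4 treated groups were built on the same model. These received the SHENQI compound (B), its yangyinyiqi part (D), its huoxue part (E) or rosiglitazone (F) by gavage for 8 weeks, and groups G, A and C received saline. Every comparison with group G is thus also one between strains, and diabetes and strain cannot be told apart in it. By the study's methods, tissue of 3 mice was taken in every group. The labels tie no array to a mouse, so the P values measure the spread between these samples.

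The proteasome degrades proteins tagged with ubiquitin. A barrel of stacked rings holds the cutting sites on its inner beta rings (Psmb5, Psmb6 and Psmb7), and a cap with a ring of ATPases and a lid binds, unfolds and feeds in the substrate. Interferon induces Psmb8, Psmb9 and Psmb10, which take the places of Psmb5, Psmb6 and Psmb7 and favour peptides for presentation on class I molecules, and it also induces the activator PA28 (Psme1 and Psme2). In skeletal muscle the proteasome is known for the breakdown of myofibrillar proteins during wasting.

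The array reads each gene through probes of 60 bases, placed on the mm9 build by the array's own annotation. The probes shown first are those of Psmb8 and of Psmb5, the interferon-induced subunit and the one it replaces, since the immunoproteasome results rest on them. Both Psmb8 probes are annotated to the same transcript, with capitals marking the 3 bases that they share. The second crosses a splice junction, as its ends lie 325 bases apart in the genome.
Psmb8 (chr17:34337771-34337830 plus strand): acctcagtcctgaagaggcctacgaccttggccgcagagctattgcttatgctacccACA
Psmb8 (chr17:34337828-34338152 plus strand): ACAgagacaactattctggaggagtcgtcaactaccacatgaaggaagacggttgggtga
Psmb5 (chr14:55233161-55233220 minus strand): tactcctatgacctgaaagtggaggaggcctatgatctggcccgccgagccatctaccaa

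The probe of Psmb7, the trypsin-like site of the standard core, is shown because this gene differed most between the tissues of the cutting subunits and separated healthy from all KK/Ay aorta arrays. Its ends lie 20420 bases apart, so it also crosses a splice junction. The first 30 bases of the Psme3 probe and of a Psmd7 probe, in lower case throughout, are shown because the values of both probes divided by slide. The coordinates are those of the whole probe.
Psmb7 (chr2:38468966-38489385 minus strand): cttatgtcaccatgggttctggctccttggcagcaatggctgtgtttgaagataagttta
Psme3 (chr11:101184185-101184245 plus strand): cagaggctgctgctcctcgctgtgctttcc
Psmd7 (chr8:110111574-110111633 minus strand): gtgttcggaagttttacaagataattagtg

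The 250 bases before the start of Psmb8 and of Psmb5 are given from RefSeq on GRCm38.p6, as the promoters of a gene of the interferon response and of the subunit it replaces. Capitals mark a match to the core of the gamma-interferon activation site (TTCNNNGAA) in Psmb8 and to the core of the antioxidant response element (TGACNNNGC) in Psmb5, searched on both strands. Of 32851 mouse promoters of 300 bases, 8.3% held the first motif and 12.4% the second. Promoters of 41 of the member genes were in the table (44 promoters), and 3 of them (6.82%) held the first motif and 6 (13.6%) the second. The core of the interferon-stimulated response element was in 5 member promoters (11.4%) and in 3.44% of all promoters. The 5 were those of Psmb3, Psmd4, Psmd9, Psme1 and Psmg4, none of them a gene of the immunoproteasome. The Psmb9 promoter held none of these motifs. A match is a description of the letters and not a binding site.
Psmb8 promoter (chr17:34197945-34198194 plus strand): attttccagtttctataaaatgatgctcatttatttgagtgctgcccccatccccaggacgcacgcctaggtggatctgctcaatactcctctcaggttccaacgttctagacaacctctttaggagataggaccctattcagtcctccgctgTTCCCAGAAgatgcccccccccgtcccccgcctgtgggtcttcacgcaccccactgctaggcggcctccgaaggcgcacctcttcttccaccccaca
Psmb5 promoter (chr14:54617996-54618245 minus strand): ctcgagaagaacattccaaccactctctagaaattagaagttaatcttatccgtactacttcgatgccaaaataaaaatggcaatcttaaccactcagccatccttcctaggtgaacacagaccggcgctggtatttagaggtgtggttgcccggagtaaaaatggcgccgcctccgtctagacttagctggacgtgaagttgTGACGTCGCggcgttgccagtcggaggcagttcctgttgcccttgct

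Levels are log2 intensities after quantile normalization, and differences are differences of these. The arrays lay on 11 slides, and no slide held both macroangiopathy arrays and arrays of the huoxue or rosiglitazone groups. Between 20200 and 30274 probes were well above background on an array, the fewest on the 4 muscle arrays of slide 11 (20200 to 21549), which were the 3 of huoxue and 1 of rosiglitazone. In skeletal muscle the mean of 6 skeletal muscle markers was 17.03 to 17.41, as the label states. In aorta the mean of 5 smooth muscle markers was 9.66 in healthy array 1 and 12.39 to 14.63 in the other 20 arrays, and the mean of 5 adipocyte markers was 13.80 to 16.21, so the aorta samples also held RNA of fat cells. Their skeletal muscle markers ranged from 8.02 to 16.19. In samples of whole tissue, fewer cells of a type and less RNA per cell cannot be told apart. Psmb11 was not well above background in any of the 14 sets of arrays and was not tested, which left 48 members, and 47 in skeletal muscle alone.

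Skeletal muscle held more of the standard proteasome than aorta, and less of the immunoproteasome and of PA28. Only slide 4 held both tissues (healthy muscle array 3 and diabetic aorta arrays 2 and 3), and every other slide held 1. For most arrays tissue and slide therefore cannot be told apart, and the P values below carry this limit. All 31 standard subunits had a higher mean in skeletal muscle, and 29 of them rose at an adjusted P below 0.05 (limma over 16176 genes and 42 arrays). Their median difference was 0.73, where the median over all genes tested was -0.03. It was 0.66 with the offset of 50, 1.12 with the processed signal and 0.64 with the authors' table, in which 30 of 31 were higher. Over all 48 members 34 were higher and 7 lower, where 36.3% of all genes were called higher and 40.1% lower. By group, 5 of 7 alpha subunits, 7 of 7 beta subunits, 6 of 6 ATPases and 11 of 11 other cap subunits were higher in muscle. The medians of these groups were 0.46, 0.59, 0.92 and 0.85. The alpha subunits that did not pass were Psma2 (0.11) and Psma7 (0.14).

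Psmb7 ranged from 10.52 to 12.07 in the 21 aorta arrays (median 11.07) and from 12.39 to 13.16 in the 21 muscle arrays (median 12.85). The ranges did not overlap, and the level was 3.31-fold higher in muscle (1.73 ± 0.09 SE on the log2 scale, adjusted P = 2.17e-19). Psmd6, a subunit of the lid, ranged from 10.61 to 11.47 in aorta and from 12.38 to 13.14 in muscle (2.84-fold higher, SE 0.06 on the log2 scale, adjusted P = 1.37e-23). Its arrays did not overlap either. In all, 9 members separated the 21 aorta from the 21 muscle arrays without overlap, and all 9 were higher in muscle, where 9.63% of all genes separated them in either direction. The others were Psmc3, Psmc5 and Psmc6, ATPases that unfold the substrate, Psmd1 and Psmd12, which are scaffold subunits of the cap, Psme4, the large activator PA200, and Psmg2, a chaperone of the core.

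The other cutting subunits differed less. Psmb5, the chymotrypsin-like site, had a median of 12.63 in aorta and 13.28 in muscle (0.65 ± 0.06 SE, adjusted P = 7.97e-12). Psmb6, the caspase-like site, was higher in muscle by 0.46 ± 0.05 SE (adjusted P = 8.63e-10). For both the ranges of the 2 tissues overlapped.

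The immunoproteasome went the other way. Psmb9 ranged from 9.14 to 12.41 in aorta (median 10.26) and from 8.80 to 10.71 in muscle (median 9.13), a difference of -1.42 ± 0.22 SE (adjusted P = 3.36e-07). Psmb8 was lower in muscle by a difference of -1.19 ± 0.22 SE (adjusted P = 7.98e-06) and Psmb10 by -0.75 ± 0.14 SE (adjusted P = 1.42e-05). Of the PA28 pair, Psme2 ranged from 12.57 to 13.95 in aorta and from 11.25 to 12.59 in muscle (-1.09 ± 0.10 SE, adjusted P = 1.46e-12), so that only 1 muscle array reached the lowest aorta array. Psme1 differed by -0.38 (adjusted P = 0.00279). The other 2 members that were lower in muscle were Psma8 (-0.51) and Psmg1, a core chaperone (-0.15). Psma8 was well above background on all 3 arrays in 6 sets, all of them aorta, so it was tested only through the tissue in which it was higher.

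The third PA28 subunit, Psme3, forms a separate activator of the nucleus and is not induced by interferon. It had the largest tissue difference of the 48 members, 2.82 ± 0.33 SE (adjusted P = 1.34e-09), and also the widest spread, from 9.74 to 14.70 over the muscle arrays against 8.71 to 10.96 in aorta. That spread followed the slides and is described with the muscle arrays. In healthy mice alone, with 3 arrays per tissue, 16 members passed an unadjusted P below 0.05 (12 higher, 4 lower in muscle) and 3 an adjusted P below 0.05, among them Psmd6 (adjusted P = 0.0144) and Psme2 (adjusted P = 0.0441). These counts are not set beside a share of all genes.

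**Figure D1:**
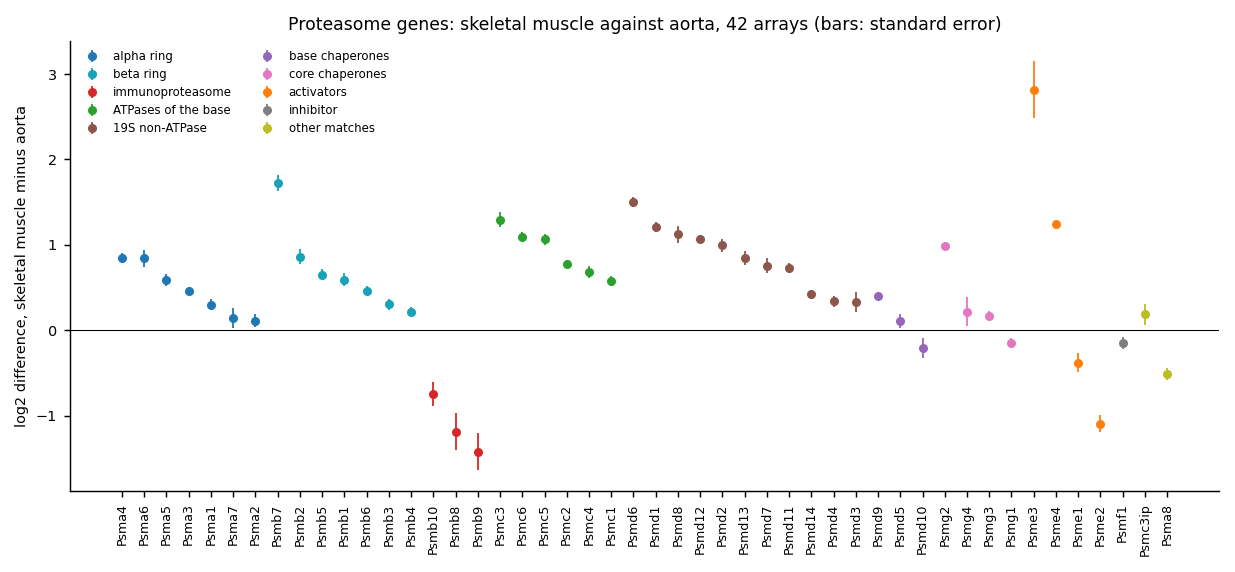
Difference in log2 level between skeletal muscle and aorta for each member, with a colour for its part of the proteasome. Points are the fitted differences over 42 arrays and bars their standard errors. All 31 standard subunits lie above 0, and Psmb8, Psmb9, Psmb10, Psme1 and Psme2 lie below it.

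Genes that work with the proteasome were read from lists chosen for their function. Over all genes tested, 36.3% were called higher and 40.1% lower in muscle. Of 23 partners and regulators, 18 were higher and 2 lower in muscle at an adjusted P below 0.05, with a median of 0.43. Among those higher were Vcp, the ATPase that extracts ubiquitinated proteins (adjusted P = 8.53e-19), Adrm1, a ubiquitin receptor of the cap (0.90), Uchl5, a deubiquitinase that binds it (0.69), and Nfe2l1, the factor that drives proteasome genes when the proteasome is inhibited (0.43). Of 13 ubiquitin genes and first enzymes 8 were higher and 3 lower, and of 4 muscle ubiquitin ligases 3 were higher, Trim63 and Fbxo32 by 6.32 and 3.74, and 1 lower. Of 14 partners of the immunoproteasome, 12 were lower in muscle and 0 higher, with a median of -0.97. These included Tap1 (-0.96), which carries peptides into the endoplasmic reticulum, and B2m (-1.36), the light chain of class I molecules.

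Each healthy aorta array had a higher median level of the standard subunits than every KK/Ay aorta array. The median over the 31 standard subunits was 10.78, 11.25 and 11.01 on the healthy aorta arrays and between 10.43 and 10.68 on the 18 KK/Ay aorta arrays. In 10 of 48 members all 3 healthy arrays stood above all 18 KK/Ay arrays, where 2.49% of all 15845 genes did, and in 0 members did they stand below all 18. The 10 were all standard subunits. In skeletal muscle the count was 0 of 47 members, where 3.42% of all genes had healthy arrays above the 18 others. With the offset of 50, the processed signal and the authors' table the aorta count was 11, 12 and 7, and without healthy array 1, 2 or 3 it was 12, 13 and 12, where 6.1%, 4.66% and 3.7% of all genes did.

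Of these 10, Psmb7 was 12.07, 11.78 and 11.67 in healthy aorta and 10.52 to 11.31 in the 18 KK/Ay arrays. Psma1, of the alpha ring, was 13.21, 13.09 and 13.23 in healthy aorta and 12.16 to 12.96 in the others. Psmd14, the deubiquitinase of the lid, was 9.25, 9.18 and 8.80 against 8.22 to 8.67. In each case the gap between the lowest healthy and the highest KK/Ay array was smaller than the spread among the KK/Ay arrays. The remaining 7 were Psma3 and Psma4 of the alpha ring, Psmb5, the ATPase Psmc4, the ubiquitin receptor Psmd4, and the lid subunits Psmd8 and Psmd12. Healthy arrays 1 and 3 shared a slide with diabetic array 1 and SHENQI array 1, and healthy array 2 with SHENQI arrays 2 and 3. That these 4 KK/Ay arrays lay below all healthy arrays for the 10 genes follows from how the 10 were counted. Their medians over the standard subunits were 10.44 (diabetic array 1) and 10.43, 10.52 and 10.61 (SHENQI arrays 1, 2 and 3). Smooth muscle markers moved with this difference, with means of 9.66 to 13.47 in healthy and 12.39 to 14.63 in KK/Ay aorta. Red cell markers moved with it as well, the mean of 3 being 13.69, 14.63 and 15.19 in healthy and 14.95 to 16.72 in KK/Ay aorta. The part of either in the difference was not tested beyond leaving out healthy array 1, which was the lowest for both.

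The comparison of diabetic with healthy mice asked what the KK/Ay strain changes on its own. In aorta alone 28 of the 31 standard subunits had a lower mean in diabetic mice, with a median of -0.38 against 0.02 over all genes tested, and 11 members passed an unadjusted P below 0.05, all lower, where 11.7% of genes passed. None of the 48 passed after adjustment (limma, smallest adjusted P = 0.187). The median was between -0.57 and -0.32 under the other scalings. It was -0.40 without healthy array 1, -0.29 (24 subunits lower) without diabetic array 1, and -0.48 within slide 1, which held 1 diabetic and 2 healthy aorta arrays. In skeletal muscle the median was -0.0031, with 16 subunits lower and 15 higher, and it was -0.15 without healthy array 1 and 0.17 without healthy array 3. There 7 members passed unadjusted, where 22.2% of genes did, and 1 after adjustment, where 4.28% did, namely Psmc3ip (0.71, adjusted P = 0.0265). No slide held both diabetic and healthy muscle arrays, so slide and group cannot be told apart in muscle. Psmc3ip read 6.62 to 6.75 in healthy muscle (slides 3 and 4). On KK/Ay muscle arrays it read 5.96 to 6.81 on slides 3 and 11 and 7.37 to 7.55 on slides 5, 7 and 8.

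Over both tissues 12 members passed an unadjusted P below 0.05, all lower in diabetic mice, where 9.31% of genes were lower, and 0 passed after adjustment (limma). Psmd4 was 9.15, 9.53 and 9.27 in healthy aorta and 8.54, 8.44 and 8.51 in diabetic aorta, with no overlap. In muscle it was 9.18, 9.19 and 10.13 in healthy and 9.24, 8.86 and 9.10 in diabetic mice, where the groups overlapped. The fitted difference was -0.63 ± 0.18 SE (adjusted P = 0.0666). Of the 2 Psmd4 probes, 1 was well above background on 1 of 3 diabetic aorta arrays and 0 of 3 diabetic muscle arrays. The other was detected on every array, with means of 11.9 in healthy and 11.2 in diabetic aorta. In muscle its means were 12.6 in healthy and 12.4 in diabetic mice. Psma3, of the alpha ring, was 8.23, 8.41 and 8.22 in healthy and 7.82, 7.86 and 8.04 in diabetic aorta. Psma2 overlapped in aorta but not in muscle, where it was 9.64, 9.49 and 9.51 in healthy and 9.01, 9.21 and 9.09 in diabetic mice. Both were among the 12. On KK/Ay muscle arrays Psma2 read 9.59 to 9.83 on slides 3 and 11 and 8.53 to 9.30 on slides 5, 7 and 8. Diabetic and healthy muscle arrays shared no slide, so slide and group cannot be told apart for it in muscle. Of the 2 Psma2 probes 1 was not well above background on any array, and the other differed by -0.34 in muscle, with means of 14.08 in healthy and 13.74 in diabetic mice. A fit with a term for 3 slides that stood apart (slides 1, 3 and 11) called 17 members lower and 0 higher, where 18.6% of genes were called in either direction. Of these 17, 16 were standard subunits, led by Psmd4 (-0.76, adjusted P = 8.82e-05) and Psma6 of the alpha ring (-0.54, adjusted P = 0.000339).

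Whether the change differed between tissues was tested as an interaction. For Psmb7 the change from healthy to diabetic was -0.70 in aorta and 0.32 in muscle, a difference of 1.01 (limma, adjusted P = 0.332). In all, 7 members passed unadjusted, where 7.12% of genes did, and none after adjustment (limma). With the slide term 4 members passed after adjustment, where 1.78% of genes did, namely Psma6, Psmb7, Psmd14 and Psma1, and each was lower in diabetic aorta relative to muscle.

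**Figure D2:**
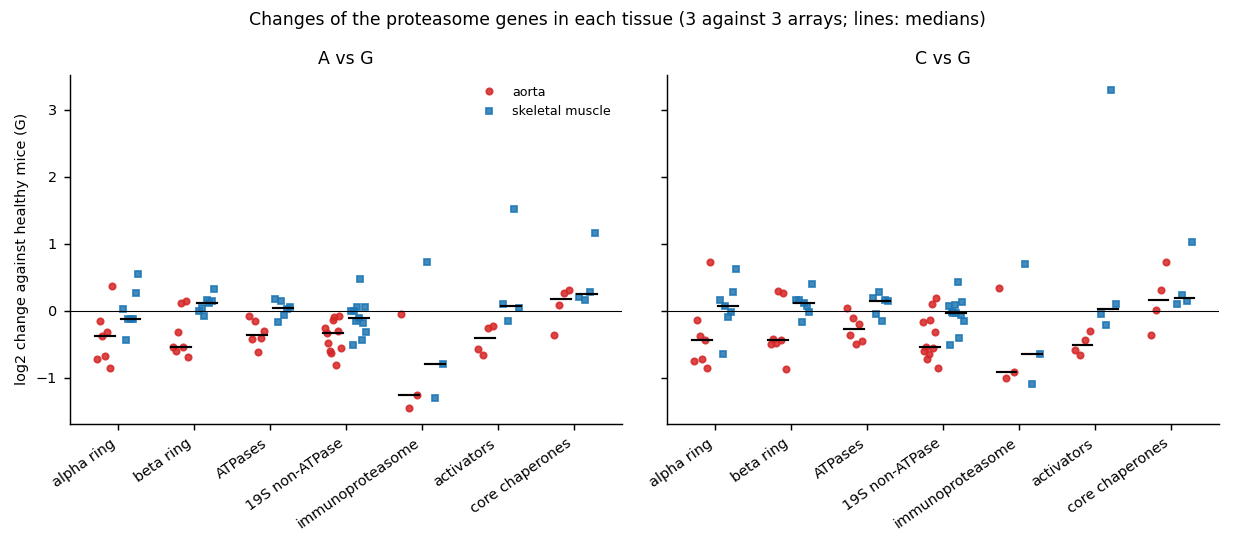
Log2 change from healthy mice for each member in diabetic mice (A) and in macroangiopathy mice (C), by part of the proteasome, with aorta and skeletal muscle apart. Each point is 1 member's difference between the means of 3 and 3 arrays, and lines are medians. In aorta 28 of 31 standard subunits lie below 0 in A and 25 in C, and in muscle 16 and 14.

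Psmb8 and Psmb9 had the largest differences from healthy mice among the 12 members that passed unadjusted. Psmb8 was 12.87, 10.51 and 11.38 in healthy aorta and 10.02, 10.11 and 10.28 in diabetic aorta, without overlap. In muscle it was 11.36, 9.59 and 10.57 in healthy and 9.25, 9.48 and 8.90 in diabetic mice, again without overlap. Over both tissues Psmb8 was 2.60-fold lower (-1.38 ± 0.37 SE, limma, adjusted P = 0.0569), which did not pass after adjustment. Psmb9, which was 12.35, 10.49 and 11.80 in healthy and 10.25, 10.44 and 10.16 in diabetic aorta, differed by -1.03 ± 0.31 SE (adjusted P = 0.0806).

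Psmb10, by contrast, was 13.34, 12.35 and 12.62 in healthy aorta and 11.84, 13.27 and 13.07 in diabetic aorta, where the groups overlapped. In muscle it was 11.86, 11.36 and 12.23 in healthy and 12.63, 12.51 and 12.48 in diabetic mice, so the diabetic arrays were the higher ones (0.72, adjusted P = 0.130 by limma). Healthy muscle arrays 1 and 2 lay on slide 3, where Psmb10 was also low in the rosiglitazone group (11.80 and 11.47). Psme2 was 13.92, 13.09 and 13.61 in healthy and 12.93, 12.74 and 12.98 in diabetic aorta, without overlap, and over both tissues it differed by -0.41 (adjusted P = 0.206). Psme1 was 14.56, 12.85 and 13.34 in healthy and 13.22, 12.96 and 12.84 in diabetic aorta, where the groups overlapped (-0.24 over both tissues, adjusted P = 0.605). Their counterparts Psmb5, Psmb6 and Psmb7 differed by -0.22, 0.14 and -0.19 (adjusted P = 0.484, 0.538 and 0.569).

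Healthy array 1 carried much of the Psmb8 difference. Without it the aorta difference of Psmb8 was -0.81 in place of -1.45, and that of Psmb9 was -0.86 in place of -1.26. The aorta difference of Psme1 was -0.58 with that array and -0.09 without it. Leukocyte markers moved with these genes. The mean of 8 leukocyte markers was 9.92 to 10.68 on 5 aorta arrays, namely healthy array 1, macroangiopathy array 3, SHENQI array 2, yangyinyiqi array 2 and huoxue array 2, and 7.95 to 9.45 on the other 16. These 5 arrays also held the 5 highest Psmb8 levels in aorta, 11.69 to 12.87 against 9.26 to 11.38. Each was the highest of its group for Psmb8, Psmb9 and Psmb10, while for Psmb5 none of the 5 was. In muscle the leukocyte mean was 8.39 to 8.86 in healthy and 7.71 to 8.28 in the 18 KK/Ay arrays. The part of leukocytes in the immunoproteasome differences was not tested.

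**Figure D3:**
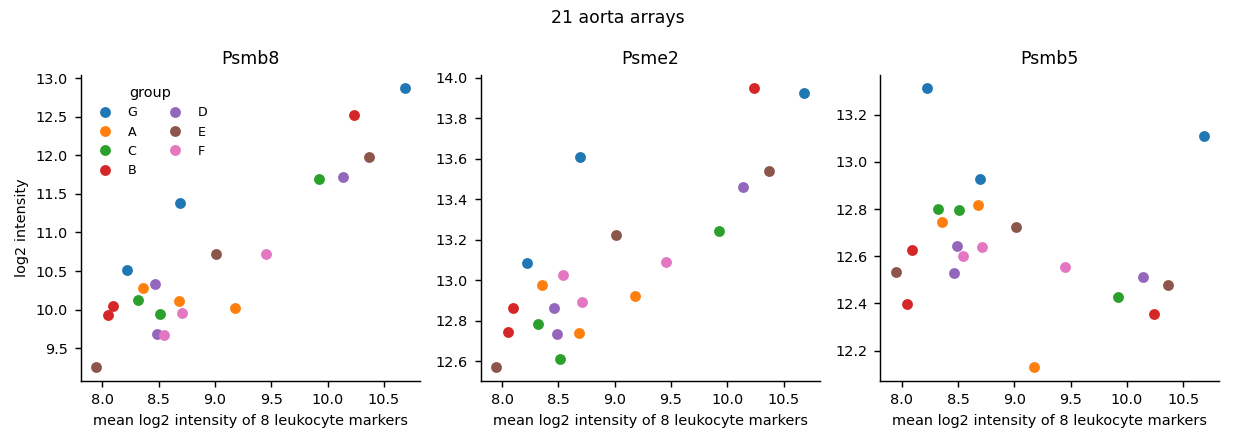
Log2 level of Psmb8, Psme2 and Psmb5 on the 21 aorta arrays against the mean log2 level of 8 leukocyte markers, with a colour for each group (G healthy, A diabetic, C macroangiopathy, B SHENQI, D yangyinyiqi, E huoxue, F rosiglitazone). The 5 arrays with a marker mean of 9.92 or more hold the highest Psmb8 levels, 11.69 to 12.87, and no such rise is seen for Psmb5.

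Partners of the immunoproteasome were lower too. Of 14, 6 fell in diabetic mice after adjustment and 0 rose, where 2.22% of all genes were lower. Their median was -0.81, and among the 6 were Tap1 (-1.26, adjusted P = 0.00463), B2m (-1.08), H2-K1 (-1.22) and H2-D1 (-1.10), which are class I chains, and Gbp2 (-1.76), a guanylate-binding protein induced by interferon. Of 22 partners and regulators of the standard proteasome, 13 ubiquitin genes and 4 muscle ubiquitin ligases, 0 passed after adjustment over both tissues (limma), and 8, 2 and 1 passed unadjusted. In muscle alone 2 of the 4 ligases fell after adjustment, Trim63 from 15.14, 14.71 and 15.40 in healthy to 12.65, 12.52 and 12.16 in diabetic mice (-2.64, adjusted P = 0.00346) and Fbxo32 by a difference of -1.63 (adjusted P = 0.00382). There 2 of 13 immunoproteasome partners also fell, where 4.28% of all genes passed in either direction. Of the 22 partners and regulators 0 passed there (limma, 2 higher and 3 lower unadjusted). The class I chains differ in sequence between mouse strains, and the part of strain in their probe signal was not tested.

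**Figure D4:**
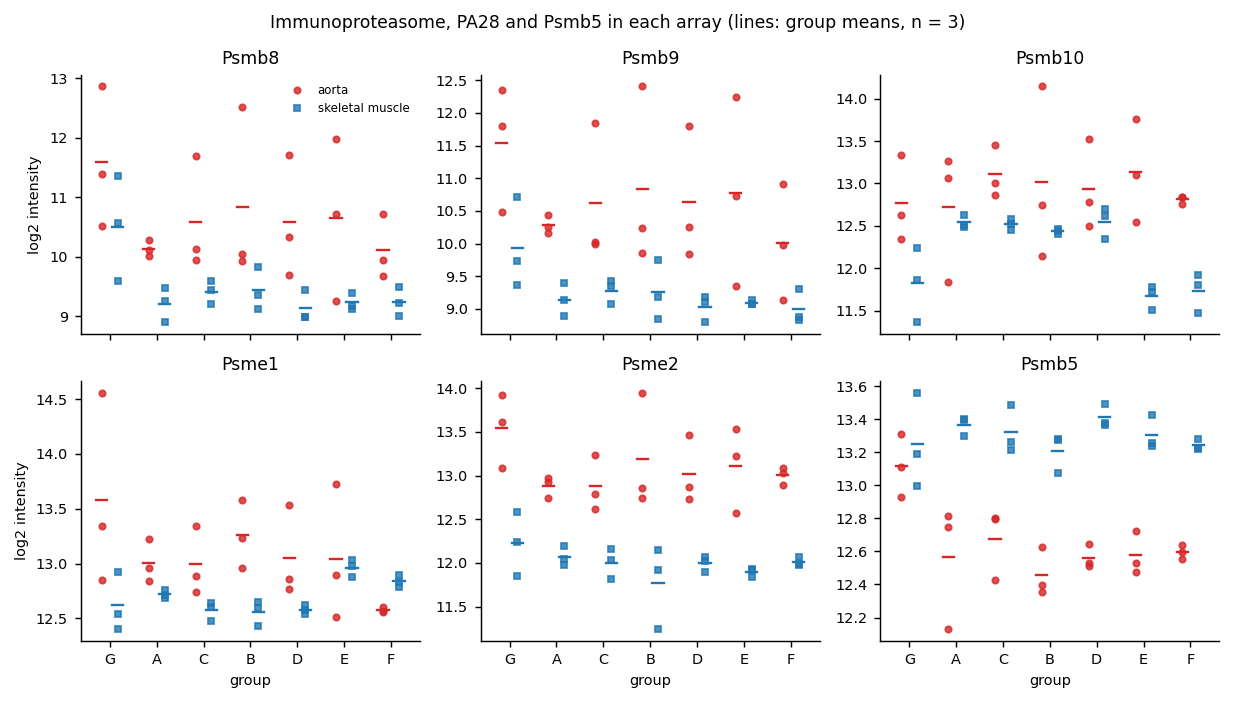
Log2 level of Psmb8, Psmb9, Psmb10, Psme1, Psme2 and Psmb5 on each array, by group (G healthy, A diabetic, C macroangiopathy, B SHENQI, D yangyinyiqi, E huoxue, F rosiglitazone) in aorta and skeletal muscle. Points are single arrays and lines the means of 3. Psmb8 spreads from 9.26 to 12.87 in aorta, with 1 high array in several groups, and the healthy arrays are the highest in muscle except that healthy array 2 (9.59) falls among the others.

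Macroangiopathy mice differed from diabetic mice in few members. The comparison asked what diet and L-NAME add to the strain. Over both tissues 1 member passed an unadjusted P below 0.05, where 5.12% of genes did, and 0 passed after adjustment (limma). It was Psme3 (0.79, adjusted P = 0.958). In muscle alone Psme3 was 12.31, 12.25 and 12.20 in diabetic and 14.18, 13.92 and 13.99 in macroangiopathy mice (1.77, adjusted P = 0.00226), the 1 member called there, where 0.0146% of genes were. In aorta its difference was -0.19. The diabetic muscle arrays lay on slide 5, and SHENQI muscle array 1 on that slide, at 12.41, stood with them rather than with SHENQI arrays 2 and 3 (14.51 and 14.70) on the slide of macroangiopathy arrays 1 and 2. No slide held both diabetic and macroangiopathy arrays in either tissue, so slide and group cannot be told apart in this comparison.

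Against healthy mice, which both groups share as controls, macroangiopathy mice gave 17 members at an unadjusted P below 0.05 (6 higher, 11 lower), where 24.3% of genes passed, and 3 after adjustment, where 5.17% did. No slide held both healthy and macroangiopathy arrays in either tissue, so slide and group cannot be told apart in this comparison. Of the members that passed after adjustment, Psmd11, a lid subunit, was the only one to fall. It was 9.21, 9.07 and 9.25 in healthy aorta and 8.52, 8.48 and 8.72 in macroangiopathy aorta, and 9.75, 10.09 and 9.70 against 9.41, 9.24 and 9.32 in muscle. The groups did not overlap in either tissue (-0.56 ± 0.10 SE, adjusted P = 0.0106). In muscle, KK/Ay arrays on slide 3 read within the healthy range, and those on slide 11 between the macroangiopathy and healthy ranges. Those on slides 5, 7 and 8 read below every healthy array. In aorta, KK/Ay arrays on slide 1 read within the healthy range and those on slide 2 below it. Psmd11 did not pass after adjustment in 5 of 26 other settings. One of its 2 probes was not well above background on any array (-0.57 in either tissue). The other read 13.16, 12.99 and 13.34 against 12.49, 12.65 and 12.42 in aorta (-0.65) and 13.87, 13.91 and 14.28 against 13.57, 13.41 and 13.69 in muscle (-0.46), without overlap in either.

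Psmg4, a core chaperone, and Psma8 were the others that passed, both higher. Psmg4 was 8.89, 8.67 and 8.11 in healthy and 9.09, 9.46 and 9.31 in macroangiopathy aorta, and 8.35, 8.30 and 9.54 against 9.85, 9.98 and 9.45 in muscle (0.88 ± 0.23 SE, adjusted P = 0.0467). The muscle groups overlapped, and the Psmg4 difference was 0.04 with the slide term. All arrays of slide 1 read low for this gene, at 8.89 and 8.11 in healthy, 7.52 in diabetic and 8.25 in SHENQI aorta. In muscle it read 8.30 to 9.31 on the arrays of slides 3 and 11 and 9.45 to 10.01 on the others. Psma8 was 6.52, 5.93 and 5.86 against 6.76, 6.51 and 6.73 in aorta, and 5.73, 5.76 and 5.90 against 6.26, 6.43 and 6.23 in muscle (0.54 ± 0.12 SE, adjusted P = 0.0304). These levels were close to background, with 1 of 3 arrays well above it in healthy aorta and in healthy muscle and 2 of 3 in macroangiopathy muscle. Psma8 thus entered the test only through macroangiopathy aorta, where it was highest, and it did not pass after adjustment in 14 of 24 other settings.

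By tissue, the median of the standard subunits in macroangiopathy against healthy mice was -0.44 in aorta and 0.07 in muscle. The muscle median was -0.06, with 20 subunits lower in place of 14, without healthy array 1 and 0.18 without healthy array 3. In aorta 16 members passed unadjusted (3 higher, 13 lower), where 18.6% of genes did, and 0 after adjustment (limma). In muscle 2 passed after adjustment, where 3.35% of genes did, namely Psme3 (3.29, adjusted P = 0.0227) and Psmc3ip (0.78, adjusted P = 0.0227). For Psme3 the healthy muscle arrays read 9.74 and 10.63 on slide 3 and 11.85 on slide 4. Psmc3ip read 5.96 to 6.81 on the KK/Ay muscle arrays of slides 3 and 11 and 7.37 to 7.55 on the others. The tissue difference passed unadjusted for 10 members, where 12.4% of genes did, led by Psmb7 (-0.88 in aorta, 0.40 in muscle, adjusted P = 0.0853). With the slide term 15 members passed after adjustment over both tissues (14 lower, 1 higher), where 13.4% of genes did. The tissue difference then passed after adjustment for 8 members, where 4.75% of genes did, Psmb7 among them (1.28, adjusted P = 0.00062). The estimates of the tissue difference were the same in the fit of 12 arrays (median of the standard subunits 0.35 in both). The term thus changed no value, and the added calls reflect the error estimate of a fit over all 42 arrays.

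Psmb8 was 9.94, 10.12 and 11.69 in macroangiopathy aorta, the last on the array with the high leukocyte mean, and differed from healthy mice by -1.05 ± 0.43 SE over both tissues (adjusted P = 0.164). Psmb9 differed by -0.79 (adjusted P = 0.238), and Psmb10 by 0.52 (adjusted P = 0.138). Of the immunoproteasome partners 4 of 14 fell after adjustment, where again 2.22% of all genes were lower, among them Gbp2 (-1.80), Tap1 (-1.09) and H2-D1 (-0.97). Of the other lists, 0 of 23 partners and regulators, 0 of 13 ubiquitin genes and 1 of 4 muscle ligases passed (limma, 9, 4 and 1 unadjusted), the last being Trim63 (-1.79, adjusted P = 0.0343).

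The SHENQI compound and its yangyinyiqi part were compared with untreated macroangiopathy mice, as were the other 2 treatments, so the 4 comparisons share their controls. With SHENQI 3 members passed an unadjusted P below 0.05, where 2.71% of genes did, and 0 passed after adjustment (limma). They were the ATPases Psmc1 (-0.16) and Psmc5 (-0.17) and Psmb4 of the beta ring (-0.19). Psmc1 was 12.14, 12.29 and 12.20 in macroangiopathy aorta and 11.96, 11.94 and 12.02 with SHENQI. In muscle it was 12.86, 12.76 and 12.89 against 12.80, 12.76 and 12.70, so the arrays overlapped in muscle alone.

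With the yangyinyiqi part 3 members passed unadjusted, where 3.41% of genes did, and 0 after adjustment (limma). Psma6 was 11.78, 11.52 and 11.47 in macroangiopathy aorta and 11.85, 11.89 and 11.70 with yangyinyiqi, and 12.70 to 12.99 against 13.01 to 13.07 in muscle (0.22, adjusted P = 0.999). Psmc3 differed by 0.19 and Psmd1 by -0.18. Psmb8 differed by 0.13 ± 0.43 SE with SHENQI and by -0.14 ± 0.35 SE with yangyinyiqi.

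With the huoxue part 8 members passed unadjusted over both tissues (2 higher, 6 lower), where 14.3% of genes did, and 0 passed after adjustment (limma). With rosiglitazone 10 did (6 higher, 4 lower), where 12% of genes did, and 0 passed after adjustment. In aorta 2 members passed unadjusted with huoxue, where 2.07% of genes did, and 10 with rosiglitazone, all higher, where 7.11% did. Psma6 headed both, at 12.14, 12.05 and 12.05 with huoxue and 12.34, 12.13 and 12.14 with rosiglitazone, above the 11.78, 11.52 and 11.47 of macroangiopathy aorta (0.49 and 0.62, neither past the test after adjustment by limma). Psmc6, an ATPase, was 11.42, 11.29 and 11.46 with rosiglitazone and 11.07, 11.01 and 10.85 in macroangiopathy aorta (0.41, adjusted P = 0.698).

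In skeletal muscle 19 members passed after adjustment with huoxue (6 higher, 13 lower), where 32.2% of genes did, and 11 with rosiglitazone (3 higher, 8 lower), where 9.85% did. Psme3 fell most in both, from 14.18, 13.92 and 13.99 in macroangiopathy muscle to 10.29, 10.24 and 10.26 with huoxue (-3.77 ± 0.09 SE, adjusted P = 2.64e-06) and to 9.83, 11 and 10.80 with rosiglitazone (-3.48 ± 0.28 SE, adjusted P = 0.00221). Psmd3, a lid subunit, was 13.75, 13.54 and 13.67 in macroangiopathy muscle, 12.73, 12.88 and 12.72 with huoxue and 13.18, 12.71 and 12.48 with rosiglitazone (-0.87 and -0.86, adjusted P = 0.000712 and 0.0281). Psmb10 was 12.45, 12.59 and 12.52 against 11.72, 11.51 and 11.78 with huoxue and 11.92, 11.80 and 11.47 with rosiglitazone (-0.85 and -0.79, adjusted P = 0.00100 and 0.0135). No array of either treatment overlapped the macroangiopathy arrays for these 3 genes.

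Fewer members rose in muscle. Psma2, of the alpha ring, was 9.10, 9.08 and 8.53 in macroangiopathy muscle, 9.77, 9.83 and 9.82 with huoxue and 9.66, 9.59 and 9.66 with rosiglitazone (0.90 and 0.73, adjusted P = 0.0053 and 0.0316). Most of this came from a probe that was not well above background on any array (1.35 and 1.18), and the detected probe differed by 0.45 and 0.29. Psmd8 rose in both as well (0.51 and 0.35). With huoxue Psmb3, Psmb6, Psmd13 and Psme1 also rose, and with rosiglitazone Psmd11 did (0.42). Its detected probe differed by 0.22 there and the one never well above background by 0.62. Over both tissues Psma2 differed by 0.49 (adjusted P = 0.233) and Psmb3 by 0.27 with huoxue, and Psmd11 by 0.26 and Psmc6 by 0.29 with rosiglitazone.

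The tissue difference of the change passed after adjustment for 7 members with huoxue, where 3.05% of genes did, and for 5 with rosiglitazone, where 1.51% did. Psme3 changed by 0.17 in aorta and -3.77 in muscle with huoxue and by 0.70 and -3.48 with rosiglitazone. Psmd10, a chaperone of the cap, was 7.89, 7.87 and 7.79 in macroangiopathy muscle and 6.81, 6.84 and 6.88 with huoxue (-1.01 in muscle, 0.18 in aorta). Psmc3ip was at least 2.34-fold lower with huoxue in muscle, where both of its probes were not well above background on any of the 3 arrays (means of 7.48 in macroangiopathy mice and 6.21 with huoxue).

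Slides moved with these muscle differences. All 3 huoxue muscle arrays and rosiglitazone muscle array 1 lay on slide 11, rosiglitazone muscle arrays 2 and 3 lay on slide 3 with healthy muscle arrays 1 and 2, and no macroangiopathy muscle array lay on either. On these 2 slides Psme3 was 9.74 to 11 in all 8 muscle arrays, healthy ones included, and on the other slides it was 11.85 to 14.70. Psmb10 was 11.36 to 11.92 on slides 3 and 11 and 12.23 to 12.70 on the others. Psmd3 was 12.37 to 13.18 on slides 3 and 11 and 13.32 to 14.47 on the others. For these 3 genes no muscle array of slides 3 and 11 overlapped an array of another slide, whatever its group. Psmd10, Psma7 and Psmg4 divided in the same way. They read at most 7.61, 10.28 and 9.31 on slides 3 and 11 and at least 7.71, 10.58 and 9.45 on the others. Psmb7, drawn beside Psme3, Psmd3 and Psmb10, did not divide in this way, at 12.39 to 13.16 over all 21 arrays.

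With a term for slides 1, 3 and 11, over both tissues 7 members passed unadjusted with huoxue, where 5.03% of genes did, and 12 with rosiglitazone, where 8.24% did, and 0 passed after adjustment in either (limma). For the tissue difference the counts were 6, where 4.24% of genes passed, and 5, where 5.8% did, again with 0 after adjustment. Psme3 had the largest tissue difference, -2.71 with huoxue (adjusted P = 0.252) and -2.96 with rosiglitazone (adjusted P = 0.118). Since no slide held arrays of both groups compared, slide and treatment cannot be told apart.

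Probes of 1 gene disagreed for Psmd7, a lid subunit, and for Psma3, of the alpha ring. Of 2 Psma3 probes well above background on every array, the brighter read 12.18 in macroangiopathy muscle, 11.22 with huoxue and 11.29 with rosiglitazone (-0.96 and -0.89), while the other read 8.33, 8.64 and 8.59 (0.32 and 0.26). The mean over its 3 probes differed by -0.24 and -0.13, and neither passed after adjustment (limma). The gene value of Psmd7 was lower with huoxue in muscle by -0.79, but this came from the probe on chr8 whose first 30 bases are printed above, which read 8.15, 7.94 and 8.12 in macroangiopathy muscle and 4.96, 5.59 and 6.03 with huoxue, with 0 of 3 huoxue arrays well above background. The brightest of its 3 probes read 12.78, 12.34 and 12.74 against 12.91, 12.94 and 12.96. The same probe read 6.35, 6.74 and 4.87 with rosiglitazone. With the brightest probe alone the huoxue difference of Psmd7 over both tissues was 0.16 in place of -0.47. The dim probe also read low on slide 1, at 6.35 and 7.14 in healthy, 6.34 in diabetic and 5.62 in SHENQI aorta, against 7.72 to 8.37 on the other aorta arrays.

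**Figure D5:**
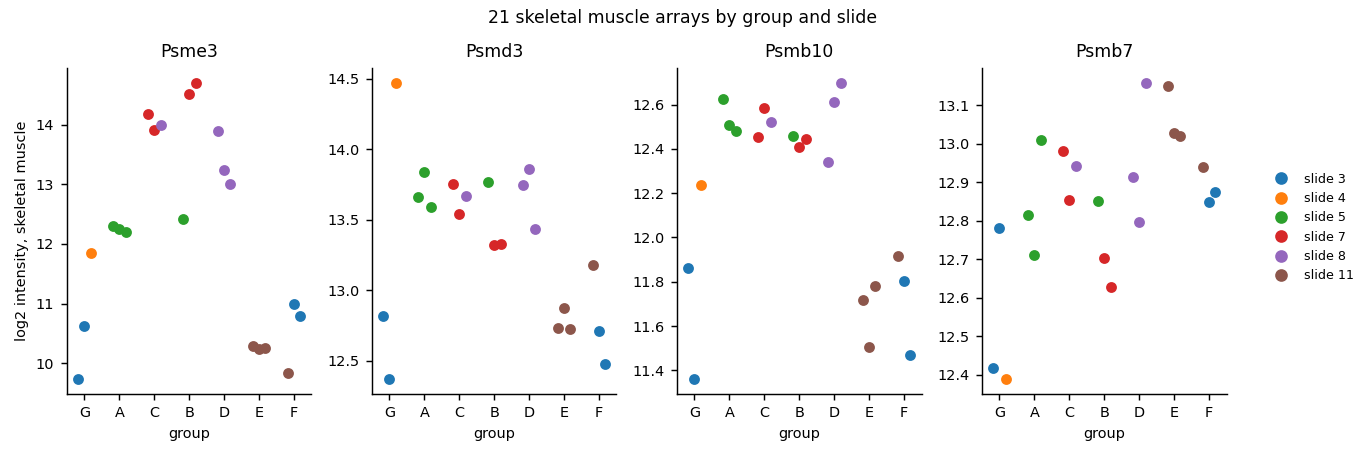
Log2 level of Psme3, Psmd3, Psmb10 and Psmb7 on the 21 skeletal muscle arrays, by group along the horizontal axis (G healthy, A diabetic, C macroangiopathy, B SHENQI, D yangyinyiqi, E huoxue, F rosiglitazone) and with a colour for each slide. On slides 3 and 11 Psme3 is at most 11, Psmd3 at most 13.18 and Psmb10 at most 11.92 in every group, below all arrays of the other slides, and Psmb7 does not divide by slide.

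The remaining members are given by their range. Psmf1, the inhibitor PI31, ranged from 6.64 to 7.54 in aorta and from 6.70 to 7.76 in muscle, and Psmg3, a core chaperone, from 9.51 to 10.05 in muscle. Psmd5, a chaperone of the cap, was 7.64 on SHENQI muscle array 1, the lowest of the 42 arrays, and 8.97 to 9.56 on the others. In none of the 4 comparisons of a treatment with macroangiopathy mice did a gene of the lists of partners, ubiquitin genes, muscle ligases or immunoproteasome partners pass after adjustment over both tissues (limma). In muscle alone, on the slides described above, 32.2% of all genes passed after adjustment with huoxue. Of 22 partners and regulators 3 rose and 8 fell there, and of 13 ubiquitin genes 4 rose and 3 fell. Of 4 muscle ligases 0 rose and 1 fell, and of 11 immunoproteasome partners 2 rose and 1 fell, both near that share. With rosiglitazone 9.85% of all genes passed in muscle. Of 22 partners and regulators 2 rose and 4 fell, and 1 of 13 ubiquitin genes rose. Of the 4 ligases and of the 11 immunoproteasome partners 0 passed (limma, 1 and 3 unadjusted).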

How the data were processed

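Total RNA of aorta and skeletal muscle was hybridised to 42 single-colour Agilent 4x44k mouse arrays, 3 per group and tissue on 11 slides. The authors scanned and read them with Agilent Feature Extraction 10.7 (submitters' processing notes). The deposited intensities are the median signal of each spot and of its local background, a processed signal corrected by that software, and marks of 0 or 1 for spots well above background or irregular. The authors also deposited a table of normalized log2 values, used as an alternative only.

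From the deposited intensities, normexp correction (offset 0), removal of 1639 control spots, quantile normalization over the 42 arrays and log2 were computed (limma 3.58.1, R 4.3.3). Irregular spots (0.189%) were set to missing, and spots, then probes of a gene, were averaged. Genes entered a test if 1 of the 4 sets compared had a probe marked above background in each of its 3 arrays. Each group comparison used 12 arrays with group and tissue as terms, and limma's moderated test with Benjamini-Hochberg adjustment over all genes tested. An unadjusted P below 0.05, the threshold of the study's methods, and an adjusted P below 0.05 are both given. Tissues were compared over 42 arrays with group as a term, and tissue differences of a change as an interaction. The fit with a slide term used all 42 arrays, 14 set means and 1 term for slides 1, 3 and 11.

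Members and gene lists were chosen with earlier results of these data known, as was the slide term. Named genes are the immunoproteasome, PA28 and their standard counterparts, genes the study names, and the members with the smallest P or largest tissue difference in each direction. The steps were tested on simulated data. Arrays carry no read depth, and their number limits the precision. No column of another series was used (0). One gene of the list of immunoproteasome partners is counted in the list but not reported here by name.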

Additional observations from a re-analysis of the deposited data

Results flagged for a closer look

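In 12 cases the change from macroangiopathy mice differed between skeletal muscle and aorta by an interaction test (limma, adjusted P below 0.05). Values are the change in muscle minus the change in aorta, on the log2 scale. With huoxue these were Psme3 (-3.94, adjusted P = 0.000198), Psmg4 (-1.39, adjusted P = 0.0159), Psmc3ip (-1.35, adjusted P = 0.00353), Psmd10 (-1.18, adjusted P = 0.000867), Psma6 (-0.84, adjusted P = 0.0241), Psmd3 (-0.69, adjusted P = 0.0301) and Psma1 (-0.68, adjusted P = 0.0430). With rosiglitazone they were Psme3 (-4.18, adjusted P = 0.00461), Psmc3ip (-1.06, adjusted P = 0.0299), Psma6 (-0.81, adjusted P = 0.0420), Psmc3 (-0.70, adjusted P = 0.0473) and Psma7 (-0.64, adjusted P = 0.0482). All 12 were negative. Psmc3ip was not well above background on any huoxue muscle array, so its huoxue value rests on a level at background. Apart from Psmd3 with huoxue, which was lower in both tissues, each case combined a higher mean in treated aorta with a lower mean in treated muscle. For Psma7 with rosiglitazone the aorta means were nearly equal. With the term for slides 1, 3 and 11 none of the 12 passed after adjustment (limma), with 6 members at an unadjusted P below 0.05 for huoxue and 5 for rosiglitazone. Slide and treatment cannot be told apart in these comparisons.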

How the results depend on the processing

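Counts are members at an unadjusted P below 0.05. Of 356 alternative counts, 263 stayed within 1.5 times the reported count. Of 913 alternative values of single genes, 825 kept their direction and side of the threshold, and 2 reversed: Psme3 in macroangiopathy against diabetic mice in aorta alone (-0.19), and Psmd7 with huoxue by its brightest probe (0.16). The causes were not tested.

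Diabetic against healthy gave 12, and 7 with the processed signal, 4 without the tissue term, 7 in muscle alone, 24 over all 42 arrays, 25 with the slide term and 25 with slides as a fixed block. For the tissue difference the count was 7, and 4 with the authors' table and 12 with the slide term. Macroangiopathy against diabetic gave 1, and 2 with the processed signal, 0 without the tissue term, 0 in aorta alone, 2 in muscle alone, 2 with the authors' table and 0 with the replicate block. For the tissue difference it was 2, and 1 with the authors' table and 1 with slide as a random block. Macroangiopathy against healthy gave 17, and 9 with the processed signal, 8 without the tissue term, 8 in muscle alone, 9 with slide as a random block, 26 with the slide term and 11 with the replicate block. The tissue difference there gave 10, and 20 with the slide term.

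SHENQI gave 3, and 7 with an offset of 50, 1 with the brightest probe, 1 with slide as a random block, 1 with the slide term, 1 with slides as a fixed block, and 0 with the processed signal, without the tissue term, in each tissue alone, with the authors' table and with the replicate block. Its tissue difference gave 0, and 3 with the processed signal, 2 with the authors' table and 1 with the slide term. Yangyinyiqi gave 3, and 1 with the slide term, 1 with the authors' table, and 0 with the processed signal, without the tissue term, in aorta alone, over all 42 arrays and with slides as a fixed block. Its tissue difference gave 0, and 2 with slide as a random block. Huoxue gave 8, and 4 without the tissue term, 2 in aorta alone and 25 in muscle alone. Its tissue difference gave 18, and 6 with the slide term. Rosiglitazone gave 10, and 6 with the processed signal, 2 without the tissue term and 16 in muscle alone. Its tissue difference gave 18, and 5 with the slide term. The tissues differed in 42 members, and in 16 in healthy mice alone.

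Leaving out 1 array at a time gave 6 to 13 for diabetic against healthy, 0 to 3 for macroangiopathy against diabetic, 9 to 18 for macroangiopathy against healthy (10 without healthy aorta array 1), 0 to 6 for SHENQI, 1 to 4 for yangyinyiqi, 5 to 14 for huoxue, 7 to 13 for rosiglitazone and 41 to 43 for the tissues. For the tissue differences in the same order of comparisons it gave 5 to 13, 1 to 3, 7 to 19 (19 without healthy muscle array 3), 0 to 3, 0 to 1, 13 to 18 and 15 to 18.

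The deviations of 63 pairs of arrays with the same replicate number correlated between -0.54 and 0.60, and 13 of 63 passed 0.1. Most of these pairs join different groups. Those of aorta and muscle within 1 group correlated between -0.36 and 0.19. The labels do not say whether such a pair came from 1 mouse, and these values cannot settle it. The replicate block gave 8 for diabetic against healthy and 42 for the tissues. The highest correlation between 2 arrays was 0.996.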
